A study of Mus musculus with 15 samples.

Results

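The genes described here are 9 members of the matrix metalloprotease system of the brain, all 4 tissue inhibitors of metalloproteases (Timp1, Timp2, Timp3 and Timp4) and 5 matrix metalloproteases (Mmp2, Mmp14, Mmp15, Mmp17 and Mmp24). They were found by gene symbol among 46078 genes in a table of RNA sequencing counts from the brains of 15 mice, and all 9 were counted in every library. The set was selected on earlier results of the same data, in which these genes' CPM values (counts scaled to a common library size) had been compared between the groups. The mice formed 3 groups of 5. The first held APP-PS1 mice injected with an antibody against CD8a, a surface protein of cytotoxic T cells, 10 times at 0.8 mg each over 4 weeks. The second held APP-PS1 mice that received 100 µL of PBS over the same period, and the third wild-type (WT) mice that received PBS in the same way. All mice were 12 months old, and both sexes were used, with 2 labelled females and 3 labelled males in the treated group, 2 and 3 among APP-PS1 mice given PBS, and 4 and 1 among WT mice. The APP-PS1 strain is an Alzheimer's disease model that carries a mutant amyloid precursor protein, chimeric between mouse and human and with the Swedish mutation, together with a mutant human presenilin 1 (PS1-dE9), and the prion protein promoter drives both in neurons of the central nervous system. The RNA came from a region of 1 hemisphere after perfusion, and the sources used here do not name it.

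Matrix metalloproteases are zinc enzymes that cut collagens, proteoglycans and cell surface proteins, and most of them are made as inactive precursors. TIMP proteins are secreted, sit in the active site of the enzyme and block it. TIMP2 has a second role, because together with MMP14 at the cell surface it presents the precursor of MMP2 for activation. TIMP3 is held in the extracellular matrix and also blocks several ADAM and ADAMTS proteases. In the brain the system is known for remodelling of the matrix around vessels and synapses, and MMP2 and MMP14 are among the enzymes reported to cut amyloid β.

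Library size, tissue makeup and labels set the frame for all values. Counts assigned to genes ranged from 17736524 to 36485809 per library, so that 3 counts stand for 0.0822 to 0.169 CPM. App, part of which is carried by the transgene, was at 2467 to 3153 CPM in treated mice, 2420 to 3036 CPM in PBS-given APP-PS1 mice and 1230 to 1324 CPM in WT mice. The antibody's target gene, Cd8a, was at 0.0824 to 0.707 CPM in treated mice, 0.167 to 0.519 CPM in PBS-given APP-PS1 mice and 0.0866 to 0.366 CPM in WT mice, so that the groups overlapped and the highest value was a treated one. Ttr, which choroid plexus cells make in bulk, exceeded 1000 CPM in 5 libraries, namely treated replicate 1, APP-PS1 PBS replicates 2 and 5, and WT replicates 3 and 5. One library, APP-PS1 PBS replicate 1, has a male label and the female pattern of transcripts, with Xist at 1922 CPM and Y-linked genes at 2.08 CPM in sum. Markers of astrocytes, oligodendrocytes, neurons and the other cell types of the brain listed for this purpose were above 0 in every group.

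Per length of transcript, Timp2 was the most abundant of the 9 genes by a wide margin. Its level over the 15 libraries was 57.1 ± 8.99 CPM per kb of merged exons (SD). Mmp17, a protease anchored in the membrane by a lipid tail, followed at 21.8 ± 2.33 CPM per kb and was the most abundant protease of the set. Timp3 stood at 13.1 ± 2.58, Mmp24, a transmembrane protease known from mouse neurons, at 7.12 ± 0.513, and Timp4 at 5.01 ± 0.676 CPM per kb. Each of these 5 genes was above the next one in that order in all 15 libraries, and their ranges did not overlap.

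The other 4 genes were lower and close together. Mmp14, the membrane protease that works with TIMP2, was at 1.75 ± 0.273 CPM per kb, Mmp15, a related transmembrane protease, at 1.69 ± 0.334, Timp1 at 1.19 ± 0.389 and Mmp2, a secreted gelatinase, at 0.819 ± 0.263. The ranges of these neighbours overlapped. Mmp14 was above Mmp15 in 9 of 15 libraries, Mmp15 above Timp1 in 11 and Timp1 above Mmp2 in 11. With the longest transcript in place of merged exons, Timp3 reached 22.6 CPM per kb and moved past Mmp17 at 22.5 CPM per kb. Mmp14 moved to 3.22 CPM per kb without a change of place.

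**Figure D1:**
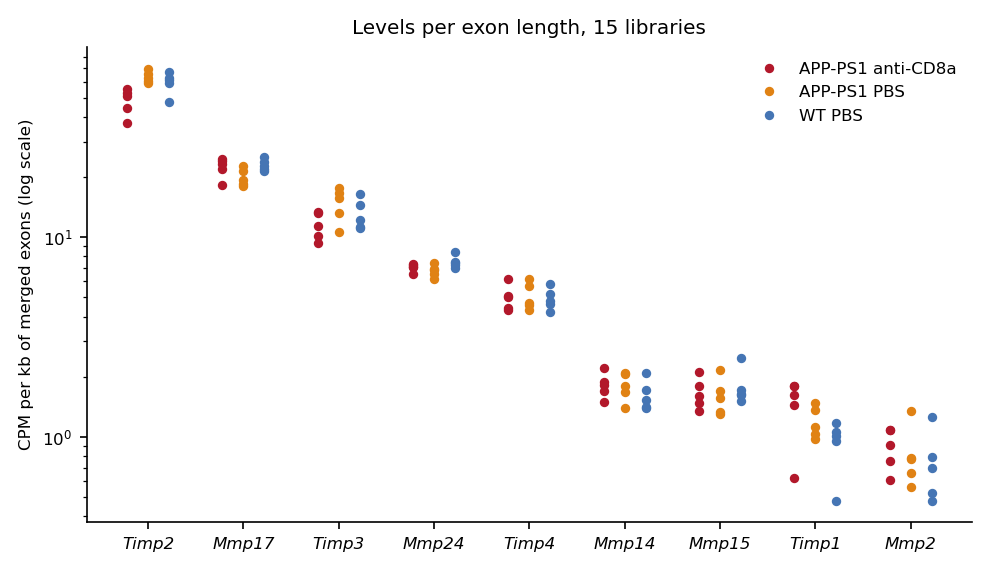
Levels of the 9 genes in CPM per kb of merged exons on a log axis, 1 point per library, with APP-PS1 anti-CD8a, APP-PS1 PBS and WT PBS libraries side by side for each gene. Timp2 averages 57.1 and Mmp2 0.819 CPM per kb, and the clouds of the last 4 genes overlap.

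Summed per length, the inhibitors were dominated by Timp2 and the 5 proteases by Mmp17. Timp2 made up 72.7 ± 2.91% of the summed inhibitor level in treated mice, 75.2 ± 3.26% in PBS-given APP-PS1 mice and 75.6 ± 4.54% in WT mice (SD, n = 5 each). Mmp17 and Mmp24 together made up 87.0 ± 2.32% of the summed level of the 5 proteases in treated mice, 86.3 ± 3.11% in PBS-given APP-PS1 mice and 88.0 ± 2.70% in WT mice.

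Timp2 was the 1 member of the 9 whose values in treated mice did not overlap those of APP-PS1 mice given PBS, and this pattern was known when the genes were chosen. It lies on chromosome 11 from 118301069 to 118355740 on the minus strand (GRCm38), with 6 merged exons. Cep295nl, a gene of the same strand, lies inside the Timp2 span and shares no exon bases with Timp2. In treated mice the level of Timp2 was 215, 206, 146, 172 and 200 CPM. Among APP-PS1 mice given PBS it was 254, 237, 272, 243 and 231 CPM, and in WT mice 230, 244, 262, 238 and 185 CPM. Every treated library was below every library of APP-PS1 mice given PBS. The WT libraries overlapped both groups, with WT replicate 5 low at 185 CPM.

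Timp2 averaged 188 ± 28.2 CPM in treated mice, 248 ± 16.2 CPM in PBS-given APP-PS1 mice and 232 ± 28.7 CPM in WT mice (SD, n = 5 each). The fitted log2 fold change of treated over PBS-given APP-PS1 mice was -0.40 (SE 0.10, 95% interval -0.62 to -0.18), a level 0.758 times that of the PBS group. Its adjusted p over all 18974 genes tested was 0.223 in edgeR's quasi-likelihood test and 0.0258 in DESeq2, and it ranked 100th by p. Treated over WT mice gave -0.30 (SE 0.11), and APP-PS1 mice given PBS over WT mice 0.10 (SE 0.11, 95% interval -0.14 to 0.33). The genes were named with these contrasts already known, so their p-values describe the fit and are no independent evidence. In bulk tissue, fewer cells of a type and less RNA per cell cannot be told apart.

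The Timp2 estimate was refitted without the libraries rich in choroid plexus RNA and with a meningeal covariate. Of the libraries under 1000 CPM of Ttr, 4 were treated and 3 came from APP-PS1 mice given PBS. Without the 5 libraries over 1000 CPM of Ttr, the log2 fold change of treated over PBS-given APP-PS1 mice was -0.50 (SE 0.10, edgeR adjusted p = 0.228), and with a covariate for meningeal fibroblast markers it was -0.41 (SE 0.11). The lowest Timp2 value, treated replicate 3 at 146 CPM, came from the library with the highest sum of 10 microglia markers, 1205 CPM, where the other treated libraries had 645 to 792 CPM. Without that library the log2 fold change was -0.31 in treated over PBS-given APP-PS1 mice and -0.18 in treated over WT mice. Across the 15 libraries the Pearson correlation of Timp2 with the microglia sum was -0.50, and -0.61 after group means were subtracted, but 0.02 without the 2 libraries farthest from the median of Timp2. After group means were subtracted it was -0.74 with 10 markers of mature oligodendrocytes and 0.63 with 10 neuron markers, and over the 15 libraries without that step -0.45 and 0.29. The part of these cell types, of choroid plexus and of meningeal tissue in the Timp2 level was not tested.

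**Figure D2:**
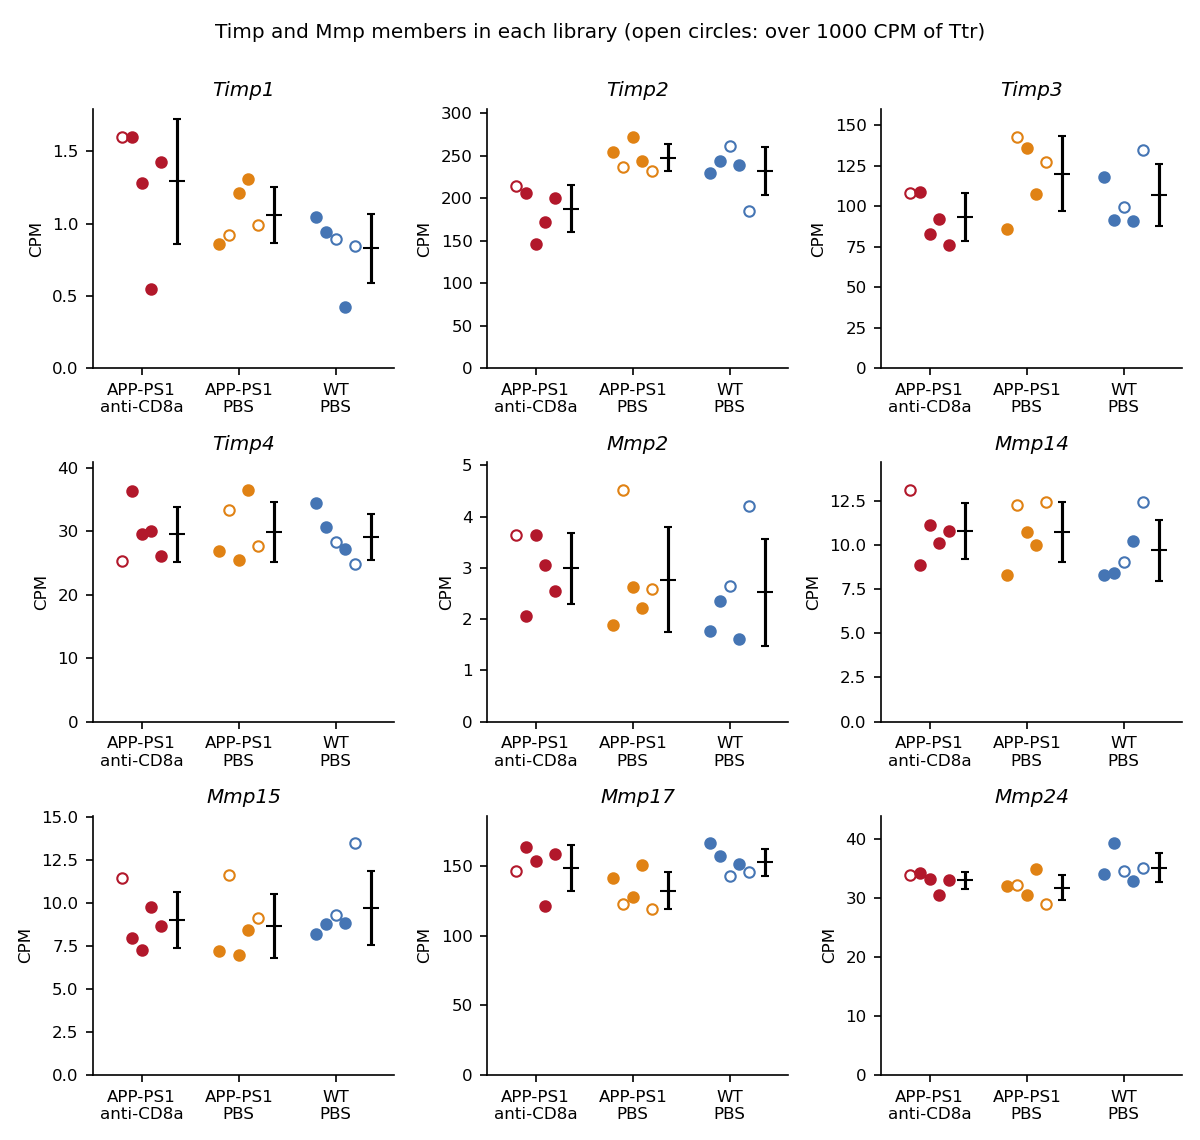
CPM of each of the 9 genes in every library, with APP-PS1 anti-CD8a, APP-PS1 PBS and WT PBS mice from left to right. Points are mice, open points are libraries over 1000 CPM of Ttr, and bars are the mean ± SD of 5 mice. In the Timp2 panel all 5 treated libraries, at 146 to 215 CPM, lie below all 5 APP-PS1 PBS libraries, at 231 to 272 CPM.

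Timp3 had a lower estimate in treated mice as well, with overlap between groups. It lies on chromosome 10 from 86300372 to 86349506 on the plus strand, inside the span of Syn3, a synapsin gene of the opposite strand, and 1733 bases of its exons are shared with exons of Syn3. Its level was 108, 108, 82.9, 92.2 and 75.7 CPM in treated mice, 86.0, 143, 136, 108 and 127 CPM in PBS-given APP-PS1 mice, and 118, 91.2, 99.6, 90.8 and 134 CPM in WT mice. The 3 highest values of APP-PS1 mice given PBS were above all treated values, and the lowest of that group, replicate 1, lay among them. The log2 fold change of treated over PBS-given APP-PS1 mice was -0.36 (SE 0.14, 95% interval -0.66 to -0.06), and that of treated over WT mice -0.23 (SE 0.15). Syn3 itself had a log2 fold change of 0.15 (SE 0.08) in treated over PBS-given APP-PS1 mice, opposite in sign to Timp3. Whether reads were counted by strand is not stated in the sources. If they were not, reads in the shared bases match both genes, and HTSeq by default sets such reads aside as ambiguous. They would then be counted for neither gene, and the level of Timp3 per kb of merged exons could be too low.

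Timp3 moved from library to library with genes of meningeal fibroblasts, the cells of the brain's outer coverings. The sum of 10 markers of these cells was 347, 111, 78.8, 233 and 115 CPM in treated mice, 126, 481, 398, 257 and 443 CPM in PBS-given APP-PS1 mice, and 330, 154, 290, 157 and 517 CPM in WT mice. All 10 markers were above 0 in every group, and Igf2 was the most abundant of them, at 30.1 to 166 CPM in treated mice, 29.9 to 248 CPM in PBS-given APP-PS1 mice and 38.5 to 323 CPM in WT mice. In treated over PBS-given APP-PS1 mice 10 of the 10 markers had lower estimates, of which edgeR called 0. An unadjusted p under 0.05 in edgeR was found for 3 of them, beside 13.3% of all genes. DESeq2 called 1, Dcn, beside 1.04% of all genes. Pearson's r of log2 Timp3 with the log2 sum was 0.86 over 15 libraries and 0.79 over the 10 libraries under 1000 CPM of Ttr. Timp3 also had r of 0.67 with ependymal, 0.64 with choroid plexus and 0.61 with mural cell markers over 15 libraries. The 14 choroid plexus markers all had lower estimates in treated over PBS-given APP-PS1 mice (median log2 fold change -1.87, against -0.999 for the meningeal markers), of which edgeR and DESeq2 called 0 and 0 had an unadjusted p under 0.05. Their sum was 67.6 to 2191 CPM in treated mice, 85.8 to 4792 CPM in PBS-given APP-PS1 mice and 83.2 to 7483 CPM in WT mice. Correlations across libraries are given as descriptions, since the points share groups, dissection and depth. With the mean log2 level of these markers as a covariate, the log2 fold change of Timp3 was -0.12 (SE 0.10) in treated over PBS-given APP-PS1 mice and -0.06 (SE 0.10) in treated over WT mice. With a choroid plexus covariate it was -0.26 (SE 0.12) in treated over PBS-given APP-PS1 mice. The meningeal covariate was added after seeing the data. The part of meningeal and choroid plexus tissue in the Timp3 level was not tested.

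**Figure D3:**
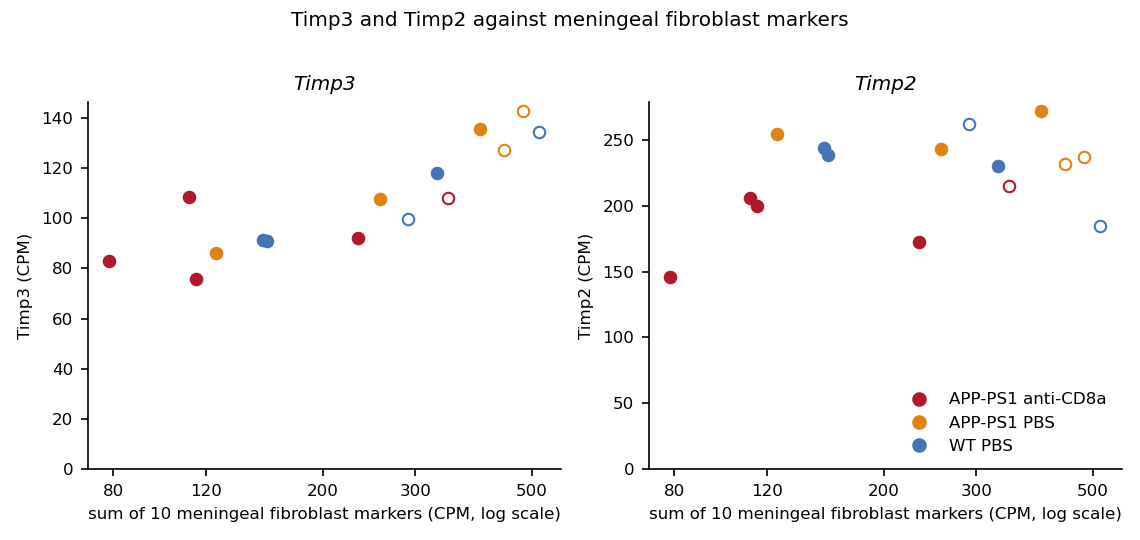
Timp3 (left) and Timp2 (right) in CPM against the summed CPM of 10 meningeal fibroblast markers on a log axis, 1 point per mouse, with open points for libraries over 1000 CPM of Ttr. Timp3 follows the marker sum (r = 0.86), and Timp2 does so less (r = 0.35).

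Timp1 was scarce and its estimate was higher in both APP-PS1 groups than in WT mice. Timp1, an inhibitor known to be induced by inflammatory signals, lies on the X chromosome from 20870166 to 20874735, inside the span of Syn1 with no shared exon bases. Its level was 1.60, 1.60, 1.28, 0.551 and 1.43 CPM in treated mice, 0.859, 0.918, 1.21, 1.31 and 0.994 CPM in PBS-given APP-PS1 mice, and 1.04, 0.942, 0.895, 0.424 and 0.844 CPM in WT mice. Of the treated libraries 4 were above all WT libraries, and replicate 4 was the second lowest of the 15. These levels rest on 10 to 56 counts per library. The log2 fold change of treated over WT mice was 0.69 (SE 0.27, 95% interval 0.11 to 1.28, edgeR adjusted p = 0.303), that of APP-PS1 mice given PBS over WT mice 0.41 (SE 0.28), and that of treated over PBS-given APP-PS1 mice 0.29 (SE 0.26).

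Timp4, an inhibitor found in astrocytes among other cells, was near the same level in all groups. Its level was 25.3 to 36.4 CPM in treated mice (median 29.6), 25.4 to 36.5 CPM in APP-PS1 mice given PBS (median 27.7) and 24.9 to 34.5 CPM in WT mice (median 28.3). The log2 fold change of treated over PBS-given APP-PS1 mice was -0.03 (SE 0.10, 95% interval -0.24 to 0.18), with a sign that changed when sex was read from the genes or single libraries were left out. Timp4 lies on chromosome 6 from 115241892 to 115252205 on the minus strand, inside Syn2, and 90 of its exon bases are shared with that gene. Syn1 and Syn2 had log2 fold changes of 0.003 (SE 0.07) and 0.007 (SE 0.08) in treated over PBS-given APP-PS1 mice.

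Among the proteases, Mmp17 (chromosome 5, 129584169 to 129611099) had its lowest mean in APP-PS1 mice given PBS. Its level was 146, 164, 153, 121 and 159 CPM in treated mice, 141, 122, 128, 150 and 119 CPM in PBS-given APP-PS1 mice, and 166, 157, 142, 151 and 146 CPM in WT mice. Of the APP-PS1 PBS values 4 of 5 were below all WT values, and the same 4 were below the treated values other than that of replicate 4. The log2 fold change was 0.17 (SE 0.08, 95% interval 0.01 to 0.33) in treated over PBS-given APP-PS1 mice, -0.16 (SE 0.08) in APP-PS1 mice given PBS over WT mice and 0.002 (SE 0.08, 95% interval -0.17 to 0.17) in treated over WT mice. Without the 5 libraries over 1000 CPM of Ttr, the first of these was 0.05 (SE 0.08) and the second -0.06 (SE 0.10). The APP-PS1 PBS libraries over 1000 CPM of Ttr were the 2 lowest of their group.

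Mmp24 (chromosome 2, 155775342 to 155818366) had the smallest coefficient of variation of the 9 genes over all 15 libraries, 7.21%. It was at 33.9, 34.4, 33.2, 30.6 and 33.0 CPM in treated mice, 32.1, 32.3, 30.6, 34.9 and 29.0 CPM in PBS-given APP-PS1 mice, and 34.0, 39.3, 34.6, 32.9 and 35.0 CPM in WT mice. Within groups it was 4.48% in treated mice, 6.84% in PBS-given APP-PS1 mice, where Timp2 had 6.54%, and 6.95% in WT mice, where Mmp17 had 6.17%. Its log2 fold change was 0.05 (SE 0.06) in treated over PBS-given APP-PS1 mice, -0.08 (SE 0.06) in treated over WT mice, and -0.13 (SE 0.06, 95% interval -0.27 to 0.004) in APP-PS1 mice given PBS over WT mice. Its exons share 637 bases with BC029722 on the opposite strand.

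Mmp2 (chromosome 8, 92827291 to 92853420), Mmp14 (chromosome 14, 54431612 to 54445364) and Mmp15 (chromosome 8, 95352268 to 95375080) gave wide intervals around small estimates. Mmp2 was at 2.05 to 3.64 CPM in treated mice, 1.88 to 4.52 CPM in PBS-given APP-PS1 mice and 1.61 to 4.22 CPM in WT mice, with 38 to 150 counts per library. Mmp14 was at 8.85 to 13.1, 8.30 to 12.4 and 8.31 to 12.5 CPM in the same 3 groups. Mmp15 was at 7.24 to 11.4, 6.99 to 11.6 and 8.19 to 13.4 CPM. The log2 fold changes of treated over PBS-given APP-PS1 mice were 0.12 (SE 0.24, 95% interval -0.40 to 0.64) for Mmp2, 0.005 (SE 0.13, 95% interval -0.27 to 0.28) for Mmp14 and 0.04 (SE 0.14, 95% interval -0.27 to 0.35) for Mmp15. For APP-PS1 PBS over WT mice, Mmp15 had -0.27 (SE 0.15), Mmp14 0.09 (SE 0.14) and Mmp2 -0.03 (SE 0.26).

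**Figure D4:**
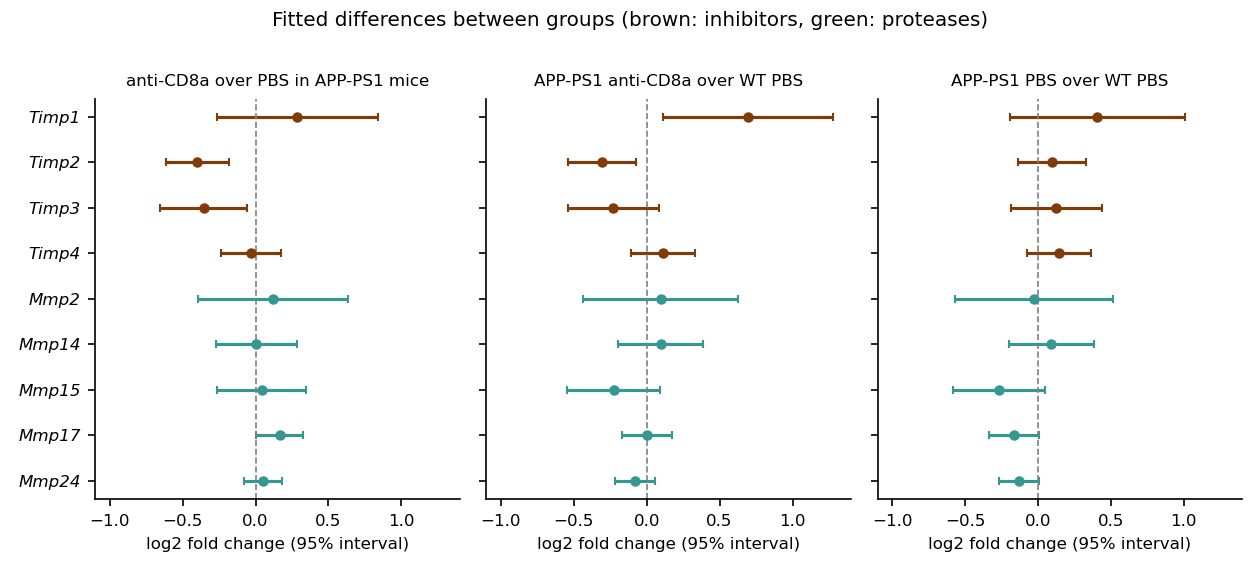
Fitted log2 fold changes of the 9 genes with 95% intervals in 3 comparisons, each with its first-named group over its second. Timp2 stands at -0.40 in treated over PBS-given APP-PS1 mice and at -0.30 in treated over WT mice, and the intervals of Mmp2, Mmp14, Mmp15 and Mmp24 include 0 in each panel.

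Counted over the 9 genes, few passed any threshold. In treated over PBS-given APP-PS1 mice, edgeR called 0 of the 9 at an adjusted p of 0.05, as it called 0 of all 18974 genes (0%), and limma-voom called 0. DESeq2 called 1 of the 9, Timp2, beside 143 of 13807 genes (1.04%), and gave Timp1 no adjusted p. At an unadjusted p under 0.05 in edgeR there were 3 of the 9, Mmp17 with a higher estimate and Timp2 and Timp3 with lower ones, beside 13.3% of all genes. One of the 9 had lower values in treated mice without overlap, beside 0.843% of all genes, and that was Timp2. The median log2 fold change was 0.04 over the 9 genes and 0.02 over all genes.

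The contrasts with WT mice called none of the 9. In APP-PS1 mice given PBS over WT mice, edgeR called 0 of the 9 beside 195 of 18974 genes (1.03%), DESeq2 called 0 beside 1.94% of its genes, limma-voom called 0, and 0 of the 9 had an unadjusted p under 0.05 in edgeR beside 11.5% of all genes. In treated over WT mice, edgeR called 0 of the 9 beside 369 genes (1.94%), DESeq2 called 0 beside 2.81%, limma-voom called 0, and 2 of the 9 had an unadjusted p under 0.05 in edgeR (Timp1 higher, Timp2 lower) beside 12.1% of all genes. None of the 9 was without overlap in either contrast, beside 2.89% and 3.04% of all genes. Both contrasts share the WT libraries. Leaving out WT replicate 5 made Timp2 in treated over WT mice -0.45 with an adjusted p of 0.0278 in edgeR. That library had the lowest Timp2 of its group, was its only male, and had the most Ttr of all libraries, 6468 CPM. No other left-out library gave a call among the 9.

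The ratio of the 4 inhibitors to the 5 member proteases in RNA had its lowest mean in treated mice. Summed per length, the 4 inhibitors over the 5 proteases gave 2.14, 2.08, 1.57, 2.10 and 1.89 in treated mice, 2.59, 2.75, 3.10, 2.45 and 2.82 in PBS-given APP-PS1 mice, and 2.25, 2.24, 2.59, 2.30 and 1.96 in WT mice. All treated values were below all values of APP-PS1 mice given PBS, and treated and WT values overlapped. Timp2, whose own lack of overlap was known when the genes were chosen, dominates the inhibitor sum. It made up 72.7%, 75.2% and 75.6% of that sum in treated, PBS-given APP-PS1 and WT mice. Mmp16, at 5.10 CPM per kb over 15 libraries, is outside the protease sum. Without Timp2 the ratio averaged 0.531 ± 0.0695 in treated mice, 0.681 ± 0.115 in PBS-given APP-PS1 mice and 0.547 ± 0.0613 in WT mice (SD, n = 5 each), and the first and second groups overlapped. The summed protease level itself averaged 33.9 ± 2.62 CPM per kb in treated mice, 31.0 ± 2.02 in PBS-given APP-PS1 mice and 34.7 ± 1.32 in WT mice. The sum was formed after the values of its members were known and was given no test.

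None of the 9 was called between the sexes, a contrast that did not enter the choice of genes. In females over males by label (8 and 7 libraries, in 1 model with group), edgeR called 0 of the 9 beside 6 of 18974 genes (0.0316%), DESeq2 called 0 beside 0.095%, and limma-voom called 0. At an unadjusted p under 0.05 in edgeR were 2 of the 9 by label, Timp4 and Mmp15, beside 5.02% of all genes. Timp4 averaged 31.4 CPM in females and 27.4 CPM in males, 0.24 apart on the log2 scale (SE 0.09, edgeR adjusted p = 0.878), and Mmp15 averaged 8.46 CPM in females and 9.86 CPM in males, with a log2 difference of -0.30 (SE 0.12, edgeR adjusted p = 0.940). Without the libraries over 1000 CPM of Ttr, Timp4 was at 0.32 (SE 0.10) and Mmp15 at -0.08 (SE 0.12). With a choroid plexus covariate they were at 0.23 (SE 0.09) and -0.16 (SE 0.09). The 14 choroid plexus markers all had lower estimates in females (median log2 fold change -1.90). Of these edgeR and DESeq2 called 0, and 2 had an unadjusted p under 0.05 in edgeR. The part of choroid plexus tissue was not tested. Sexes were unequal between groups. APP-PS1 PBS replicate 1, labelled male, had the female pattern of transcripts. With that library counted as female, Mmp2, Mmp14 and Mmp15 were the members at an unadjusted p under 0.05 in edgeR. Their log2 differences of females over males were -0.56 (SE 0.19), -0.26 (SE 0.10) and -0.38 (SE 0.11). The edgeR adjusted p values were 0.385, 0.494 and 0.363. Timp4 was then at 0.20 (SE 0.09, unadjusted p = 0.0518 in edgeR).

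Some pairs of members moved together over the 15 libraries. Mmp2 and Mmp14 had a Pearson r of 0.74, and still 0.61 in the 10 libraries under 1000 CPM of Ttr. Mmp15 had r of 0.64 with Mmp2 and 0.59 with Mmp14 over 15 libraries, and -0.07 and -0.02 over those 10. Mmp15 also followed the choroid plexus marker sum with r of 0.77 over 15 libraries, against -0.36 over those 10. Mmp17 and Mmp24 had r of 0.72, and 0.68 over those 10. Timp2 and Mmp2, an inhibitor and the enzyme whose activation it can assist, had r of -0.45, and -0.69 over those 10. Timp2 and Mmp14 had r of -0.31. Among the 4 inhibitors the highest pair over 15 libraries was Timp2 with Timp3, at 0.31. That pair was at 0.50 over those 10 libraries, and at -0.11 over 15 after group means were subtracted.

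**Figure D5:**
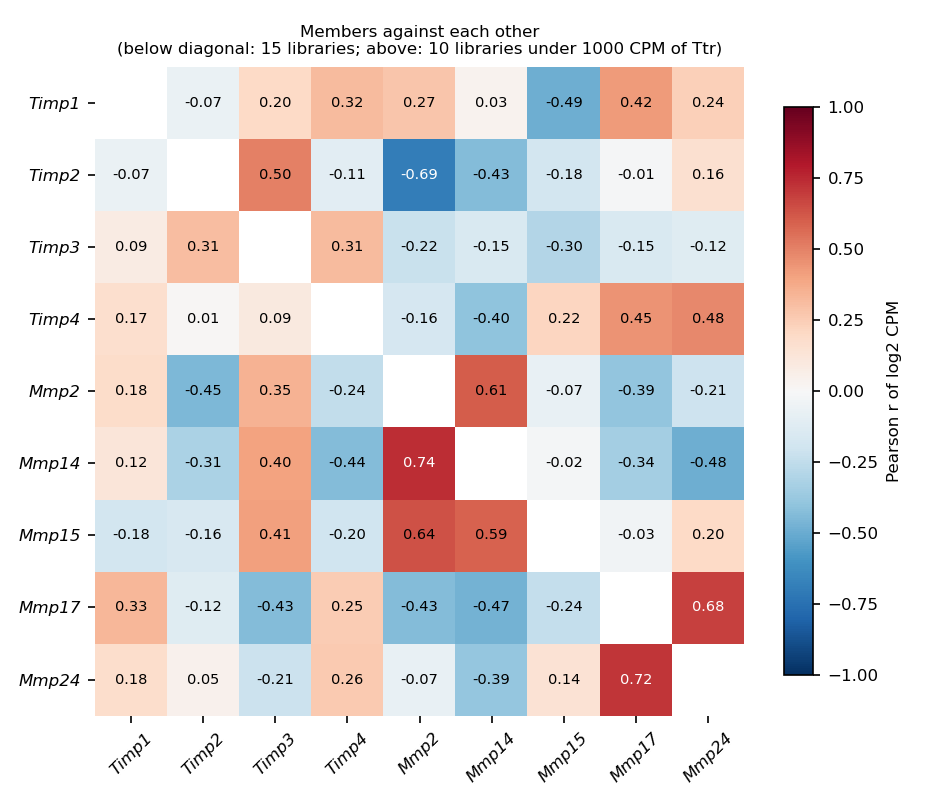
Pearson r of log2 CPM for each pair of the 9 genes, over all 15 libraries below the diagonal and over the 10 libraries under 1000 CPM of Ttr above it. Mmp17 with Mmp24 (0.72 and 0.68) and Mmp2 with Mmp14 (0.74 and 0.61) are positive above and below the diagonal, and the pairs of Mmp15 with Mmp2 and Mmp14 are not.

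For each member the 3 genes of most similar course were taken from 15682 genes with a mean of at least 1 CPM. Timp2 was closest to Cadm1, a synaptic adhesion molecule (r = 0.957 over 15 libraries, and 0.917 after group means were subtracted), followed by Unc5d, a netrin receptor, at 0.929 and Rxrg, a retinoid receptor, at 0.925. Timp4 was closest to Ndrg2, a gene of astrocytes (0.928), then Mt1, a metallothionein (0.900), and Gstm1, a glutathione transferase (0.881). Timp3 was closest to Slc16a12, a transporter (0.922), Erlin2, a protein of the endoplasmic reticulum (0.919), and Bmp4, a growth factor (0.917). Timp1 was closest to Gm16344 (0.86), Fat1 (0.85) and Col12a1 (0.84), and without the 2 libraries farthest from its median these were 0.63, 0.63 and 0.56.

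The proteases had neighbours of their own. Mmp17 was closest to Mast3 (0.941), Slit1, an axon guidance ligand (0.929), and Osbpl7 (0.905), and Mmp24 to Gm20605 (0.913), Vps37c (0.906) and Mllt1 (0.905). Mmp14 was closest to Tax1bp3 (0.884), Lpar1, a lysophosphatidic acid receptor of oligodendrocytes among other cells (0.867), and Ugt8a, an enzyme of myelin lipid synthesis (0.866). Mmp2 was closest to BC034090 (0.879), Ltbr (0.867) and Agpat2 (0.867). Mmp15 was closest to Efs (0.898), Tmem237 (0.889) and Pltp (0.889), which were 0.583, 0.646 and 0.545 without the 5 libraries over 1000 CPM of Ttr.

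Apart from Mmp16, the rest of the family was scarce or silent. Of 18 other matrix metalloproteases 8 passed the filter on low counts, and Mmp1a, Mmp1b, Mmp7, Mmp10, Mmp20 and Mmp27 had 0 counts in all 15 libraries, each 0 allowing up to 0.0822 to 0.169 CPM per library. The most abundant was Mmp16, a transmembrane relative of Mmp14, at 5.41 ± 0.458 CPM per kb in treated mice, 5.09 ± 0.444 in PBS-given APP-PS1 mice and 4.81 ± 0.348 in WT mice. Over all 15 libraries it was at 5.10 CPM per kb, beside 7.12 for Mmp24, 5.01 for Timp4 and 1.75 for Mmp14. With the longest transcript it was at 8.82 CPM per kb, beside 7.74 for Mmp24. EdgeR and DESeq2 called 0 of the 8 in each of the 3 group comparisons, and at an unadjusted p under 0.05 in edgeR there were 1 in treated over PBS-given APP-PS1 mice, 1 in treated over WT mice and 2 in APP-PS1 mice given PBS over WT mice, beside 13.3%, 12.1% and 11.5% of all genes. The smallest p was that of Mmp12, an elastase of macrophages, at 0.847 ± 0.197 CPM in treated mice, 1.03 ± 0.184 CPM in PBS-given APP-PS1 mice and 0.626 ± 0.156 CPM in WT mice, with a log2 difference of 0.82 (SE 0.22, edgeR adjusted p = 0.101) for APP-PS1 mice given PBS over WT mice.

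In the wider pathway 1 gene, Plau, passed edgeR's test in each contrast with WT mice, where 1.94% (treated) and 1.03% (APP-PS1 PBS) of all genes passed. Plau, the urokinase that makes plasmin and so starts the activation of several metalloproteases, was at 5.65 ± 1.56 CPM in treated mice, 4.89 ± 1.24 CPM in PBS-given APP-PS1 mice and 2.64 ± 0.513 CPM in WT mice (SD, n = 5 each). It was higher in all treated libraries (4.31 to 8.08 CPM) and all libraries of APP-PS1 mice given PBS (3.31 to 6.44 CPM) than in all WT libraries (1.85 to 3.22 CPM). Of all genes, 3.04% (treated) and 2.89% (APP-PS1 PBS) had no overlap with WT mice in either direction. The log2 fold change of Plau was 1.14 (SE 0.21, adjusted p = 0.00805 in edgeR) in treated over WT mice and 0.95 (SE 0.22, adjusted p = 0.0474 in edgeR) in APP-PS1 mice given PBS over WT mice. In treated over PBS-given APP-PS1 mice it was 0.18 (SE 0.20). The call in APP-PS1 mice given PBS over WT mice was lost without a sex covariate (adjusted p = 0.0634 in edgeR) and in 9 of the 10 fits that left out 1 library of these groups (adjusted p = 0.0549 to 0.113 in edgeR). That in treated over WT mice was lost without treated replicate 3 (adjusted p = 0.0727 in edgeR). Microglia markers were higher in the same contrasts, with sums of 645 to 1205 CPM in treated mice, 656 to 905 CPM in PBS-given APP-PS1 mice and 439 to 518 CPM in WT mice, and their part in the Plau level was not tested.

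The pathway lists otherwise gave no edgeR calls. Of 11 tested ADAM proteases, 18 ADAMTS proteases, 10 other protease inhibitors, 12 activators, receptors and clearance genes and 20 matrix substrates, Plau was the single call in either contrast with WT mice, and edgeR, DESeq2 and limma-voom called 0 in treated over PBS-given APP-PS1 mice. At an unadjusted p under 0.05 in edgeR in that contrast there were 1 ADAM, 4 ADAMTS, 1 inhibitor, 2 activator and 4 substrate genes, beside 13.3% of all genes. There the smallest p values of 3 lists fell on Adam33 (log2 fold change -0.72, SE 0.24), on Adamts3, a protease that trims procollagen (0.37, SE 0.10), and on Bcan, the proteoglycan brevican (0.23, SE 0.06), and their edgeR adjusted p values were 0.277, 0.229 and 0.223. DESeq2 called 4 genes of the pathway lists in APP-PS1 mice given PBS over WT mice, beside 1.94% of all genes it tested. Among them were Plau, Serpina3n, a protease inhibitor, and Sparc, a matrix protein. The last 2 had higher estimates (DESeq2 adjusted p = 0.0204 and 0.0383). In treated over WT mice DESeq2 called Plau and Serpina3n (adjusted p = 3.53e-05 and 0.0116), beside 2.81% of all genes it tested. Col1a1, Col1a2 and Col3a1 are in both the substrate list and the meningeal list.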

How the data were processed

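RNA was sequenced from brain tissue of 15 mice with a stranded mRNA kit, per the labels' protocols. The authors deposited 1 table of raw counts per gene, in which 46078 genes and 5 HTSeq summary lines are listed. Bowtie2 2.2.2, HTSeq 0.11.2, FastQC, DESeq2 and the build GRCm38 are named in the submitters' processing notes, and the strand setting is not stated there. The summary lines stayed out of library sizes and tests, and reads without a feature were 20.0 to 25.9% and ambiguous reads 1.64 to 1.79%. The number of sample columns not used was 0. Gene symbols and coordinates came from GENCODE M21, and 935 identifiers without a symbol held 0.101% of counts.

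Counts as deposited were fitted with edgeR 4.0.16 (R 4.3.3), with TMM scaling, the filterByExpr filter (18974 genes), a model of group and labelled sex over all 15 libraries (11 residual degrees of freedom), the quasi-likelihood test and Benjamini-Hochberg adjustment at 0.05. SE is the absolute log2 fold change over the square root of F. CPM values use TMM-scaled library sizes over the genes tested. DESeq2 1.42.0, limma-voom (limma 3.58.1), other scalings and filters, other sex and tissue covariates, fewer groups and leaving out each library were alternatives. The covariate for meningeal fibroblasts was added after seeing the data. Tests were checked on simulated data, and figures and summaries used Python 3.11.15, pandas 2.3.3, numpy 2.4.6 and matplotlib 3.10.9. In the simulated data edgeR called 26%, 16% and 4% of genes changed 1.2-fold, and 74%, 66% and 64% of those changed 1.5-fold. For genes changed 2-fold it called 94%, 90% and 92%. These values are for treated over PBS-given APP-PS1, APP-PS1 PBS over WT and treated over WT mice, with 50 genes each. In the same order, 10, 10 and 2 unchanged genes were called. The changed genes had a mean of at least 1 CPM. Simulated counts were drawn independently for each gene and library, without shared effects of tissue makeup or sex, so recovery in the real data may differ. The members and gene lists were chosen with earlier results of these data known. The genes named are all 9 members, the 3 genes with the highest Pearson r to each, from each pathway list the genes called or else the one of smallest p, the most abundant marker of a list described, the synapsin genes that hold members, and App, Cd8a and Xist as checks of labels. Mmp16, Dcn, Serpina3n, Sparc, the collagens and the metalloproteases without counts fall outside this rule and were named after their values were seen. Whether the animals of a group are independent beyond separate animal numbers is not stated. The protocols also name an isotype control antibody, which is not analysed here. One result of the pathway lists is not reported here.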

Additional observations from a re-analysis of the deposited data

Results flagged for a closer look

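Of 27 sets of 5 values (9 genes in 3 groups), 2 held a library whose gap to the next value passed Dixon's critical value of 0.71, and chance flags about 1 in 20 such sets. Mmp2 in APP-PS1 PBS replicate 2 was at 4.52 CPM, where the other 4 libraries of that group were at 1.88 to 2.64 CPM, with a gap of 0.715 of the group's range. Mmp15 in WT replicate 5 was at 13.4 CPM, where the other 4 WT libraries were at 8.19 to 9.27 CPM, with a gap of 0.794 of the range. Both libraries had over 1000 CPM of Ttr, at 4122 CPM and 6468 CPM, and the part of choroid plexus tissue in these values was not tested.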

How the results depend on the processing

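No paired analysis was possible because the animal numbers in the labels differ between groups and replicate numbers only name samples. In treated over PBS-given APP-PS1 mice, 197 of 220 values under alternatives kept their direction and side of the threshold, 22 reversed and 1 passed the threshold. For APP-PS1 PBS over WT mice 197 of 220 were kept, in treated over WT mice 204 of 220, and between sexes 211 of 225. DESeq2 called 1 of the 9 genes in treated over PBS-given APP-PS1 mice.

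Reversals were of estimates near 0, and their cause was not tested. In treated over PBS-given APP-PS1 mice, with sex taken from Xist and Y genes Timp4 was at 0.0072, Mmp14 at -0.040 and Mmp15 at -0.028. Mmp14 was at -0.0039 in DESeq2, -0.0052 with RLE factors, -0.0095 with library sizes only, -0.0021 without a filter and -0.0016 with only 2 groups. Mmp24 was at -0.017 without the libraries over 1000 CPM of Ttr. For APP-PS1 PBS over WT mice, Mmp2 was at 0.12 without sex, 0.020 with sex from genes, 0.11 with a choroid plexus covariate and 0.23 without the Ttr-rich libraries. In treated over WT mice, Mmp17 was at -0.0036 in DESeq2, -0.0020 in limma-voom, -0.0035 with RLE factors, -0.0027 without a filter, -0.036 without sex, -0.046 with the choroid plexus covariate, -0.0051 without the Ttr-rich libraries and -0.044 with the meningeal covariate. Between sexes, Timp2 was at 0.0012 in limma-voom, 0.0014 with at least 1 CPM in 5 libraries and 0.012 with sex from genes, and Timp3 at 0.084 without the Ttr-rich libraries and 0.054 with the meningeal covariate.

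Leaving out 1 library moved log2 fold changes within these ranges. In treated over PBS-given APP-PS1 mice they were -0.46 to -0.31 for Timp2 (edgeR adjusted p = 0.108 to 0.513), -0.47 to -0.28 for Timp3, -0.094 to 0.045 for Timp4, -0.071 to 0.32 for Mmp2, -0.096 to 0.095 for Mmp14 and -0.058 to 0.14 for Mmp15. For APP-PS1 PBS over WT mice they were -0.052 to 0.14 for Timp2, -0.19 to 0.25 for Mmp2, -0.028 to 0.23 for Mmp14 and 0.80 to 1.13 for Plau. In treated over WT mice they were -0.45 to -0.18 for Timp2, -0.16 to 0.36 for Mmp2, -0.032 to 0.047 for Mmp17 and 0.93 to 1.25 for Plau, and 0 to 1 of the 9 genes were called. Between sexes they were -0.13 to 0.088 for Timp2, -0.19 to 0.0041 for Timp3 and -0.0058 to 0.064 for Mmp24.

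Of the pathway lists, 1 gene was called in each contrast with WT mice. For APP-PS1 PBS over WT mice it was 4 in DESeq2, 3 without a filter, 0 without sex, 0 with the choroid plexus covariate and 0 to 2 with 1 library left out. In treated over WT mice it was 2 in DESeq2, with library sizes only, without a filter and without the Ttr-rich libraries, and 0 to 3 with 1 library left out. DESeq2 called 1.94% and 2.81% of all genes in these contrasts. The adjusted p of Plau in APP-PS1 mice given PBS over WT mice was 0.0634 without sex, 0.0592 with the choroid plexus covariate, 0.0651 without the Ttr-rich libraries and 0.0945 with only 2 groups, all in edgeR, with log2 fold changes of 0.89, 0.94, 1.31 and 0.88, against 0.95 in the model of all groups and sex.

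Over all genes, treated over PBS-given APP-PS1 mice gave 0 calls, and 143 in DESeq2, 13 without a filter and 1 with only 2 groups. APP-PS1 mice given PBS over WT mice gave 195, and 361 in DESeq2, 115 without sex and 98 without the Ttr-rich libraries. Treated over WT mice gave 369, and 199 without the Ttr-rich libraries and 221 with only 2 groups. The sexes gave 6, and 18 in DESeq2, 20 without a filter, 13 with sex from genes, and 0 in limma-voom and without the Ttr-rich libraries.

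With the longest transcript the level per kb was 22.6 CPM for Timp3, 7.74 CPM for Mmp24 and 3.22 CPM for Mmp14. With group means subtracted, r was 0.917, 0.867 and 0.842 for Timp2 with Cadm1, Unc5d and Rxrg, 0.910 for Mmp17 with Mast3 and 0.851 for Mmp24 with Mllt1. Without the Ttr-rich libraries it was 0.786 for Mmp2 with Ltbr, 0.667 and 0.755 for Mmp14 with Lpar1 and Ugt8a, 0.583, 0.646 and 0.545 for Mmp15 with Efs, Tmem237 and Pltp, and 0.904 and 0.878 for Mmp17 with Mast3 and Slit1. Depth limits Timp1, at 10 to 56 counts per library, and Mmp2, at 38 to 150.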
